A study of Mus musculus with 17 samples.

Results

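All 37 genes encoded by the mouse mitochondrial genome are described here. They were chosen by their symbol, which starts with mt-, and make up 37 of the 47643 rows of the deposited count table: 13 mRNAs, 2 rRNAs and 22 tRNAs. RNA was measured by polyA RNA sequencing of Foxp3-GFP+ regulatory T cells (Tregs), CD4+ T cells that restrain immune responses, sorted from spleens of the diabetes-prone NOD mouse strain. The 17 libraries fell into 3 genotypes: transgenic (NOD-60A Tg+, carrying an Nfkbid transgene, 6 libraries), knockout (NOD- Nfkbid-KO, 5 libraries) and control (Control NOD, 6 libraries). Nfkbid encodes a nuclear protein of the IkB family that acts on NF-kB target genes. All mice shared the NOD background and the Foxp3-GFP reporter, and all libraries carried 1 batch label. The sources used here give neither the promoter of the transgene nor the age of the mice. Transgenic libraries came from 1 sample each and the others from pools of 2, so pooling and the transgene cannot be told apart. Library names number the control samples in another series of identifiers than the rest, which cannot be told apart from genotype either. Every sample identifier occurs in 1 library name only, but nothing states that they stand for separate mice, so a p-value reflects only how these libraries spread, which may be technical. The library numbers in the table's column headers fall into 4 runs: all transgenic libraries with control replicates 1 and 2, control replicate 6, all knockout libraries, and control replicates 3 to 5. What these numbers record is not stated. Transgenic and control libraries can be compared within a run, while the run of the knockout libraries and their genotype cannot be told apart.

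Mitochondrial DNA is a circle whose strands, called heavy and light, are each transcribed as a long precursor. tRNAs lie between most of the other genes, and their excision frees the mRNAs and rRNAs. The mRNAs encode core subunits of respiratory complexes I, III, IV and V, and the rRNAs form the core of the mitochondrial ribosome. The other subunits of these complexes and the proteins of this ribosome are encoded in the nucleus and imported.

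Library totals ran from 3133388 to 4726615 counts, and 3 counts corresponded to 0.635 to 0.957 CPM (counts scaled to the library total), a floor that covers counting error only. Rows named after nuclear genes did not all behave as counts of those genes: the B2m row held 0 counts in every library, the Actb row at most 7 and the Eef1a1 row at most 2. Such rows are therefore called by their name in the table. Control libraries held 3.20 to 5.74 CPM of the Nfkbid row, knockout libraries 2.31 to 8.75 and transgenic libraries 7.28 to 10.3, so the row does not check the knockout label, and groups are those of the labels. Of the Treg marker rows, Foxp3 held 222, 337 and 244 CPM in knockout replicates 2, 3 and 5, 246 in transgenic replicate 1 and 315 to 382 in the other 13 libraries, while Cd3e, Il10ra, Tnfrsf18, Tnfrsf4 and Capg had a group mean of at most 1.11 CPM. Knockout replicates 2, 3 and 5 stood apart, with 13615, 13476 and 13802 rows above 0 against 15039 and 15931 in knockout replicates 1 and 4 and 15801 to 17379 in the other groups, and their values are given separately.

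Neighbouring mitochondrial genes shared bases at 9 places. Among mRNAs, mt-Atp6 and mt-Co3 shared 1 base, at chrM:8607 (+), which is not printed. Another 3 places join mRNAs whose counts are set against each other as ratios here. They are printed on the strand given, in GRCm38 and from the GENCODE vM21 transcripts, with the bases that lie in both genes in capitals. At chrM:7907-7989 (+), mt-Atp8 runs into mt-Atp6 over 43 bases of 1 mRNA. At chrM:10147-10193 (+), mt-Nd4l runs into mt-Nd4 over 7 bases of 1 mRNA. At chrM:13532-13585 (+), mt-Nd5 and mt-Nd6 meet tail to tail on opposite strands over 14 bases.
mt-Atp8/mt-Atp6 junction: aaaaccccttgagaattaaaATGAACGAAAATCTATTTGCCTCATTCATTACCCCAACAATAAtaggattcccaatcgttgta
mt-Nd4l/mt-Nd4 junction: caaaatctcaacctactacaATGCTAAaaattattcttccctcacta
mt-Nd5/mt-Nd6 junction: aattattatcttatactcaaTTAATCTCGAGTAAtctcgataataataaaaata
Each shared stretch is shorter than the 67 bp read, so no whole read lies in both rows of a pair. The capitals of the upper 2 lines open with the start codon of the downstream frame and close with the stop codon of the upstream one. Of the 13 mRNAs, 10 ended in a complete stop codon in the annotation, while mt-Co3, mt-Nd4 and mt-Cytb ended in a lone T, where the polyA tail completes the codon.

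tRNA rows are about as short as the read, and 3 of them show what this means for their counts. They are printed 5′ to 3′ with the bases at which a whole 67 bp read can start in capitals. The leucine tRNA mt-Tl1 lies at chrM:2676-2750 (+), the glutamate tRNA mt-Te at chrM:14071-14139 (-) and the serine tRNA mt-Ts2 at chrM:11613-11671 (+).
mt-Tl1: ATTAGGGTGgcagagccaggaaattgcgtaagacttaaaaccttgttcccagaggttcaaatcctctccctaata
mt-Te: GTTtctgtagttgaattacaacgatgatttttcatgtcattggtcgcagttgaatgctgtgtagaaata
mt-Ts2: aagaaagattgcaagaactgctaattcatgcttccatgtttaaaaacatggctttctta
mt-Tl1 offers 9 such starts, mt-Te offers 3 and mt-Ts2 none. All 22 tRNA rows together held 1188 counts over the 17 libraries, 46 to 99 per library, and mt-Tl1 made up 58.6% of them. mt-Tl1 had 16 to 59 counts and mt-Te 1 to 14 counts per library, and these were the only tRNA rows above 0 in every library. mt-Tk, mt-Tr and mt-Ts2 were at 0 in every library, which allows up to 3 counts in each, and no tRNA row other than mt-Tl1 passed 18 counts in any library. The rows shorter than the read, mt-Tk, mt-Tc and mt-Ts2, held 1 count in sum. Across the 22 rows the summed count followed the number of starts with Spearman's rho of 0.53, as a description. mt-Tl1 lies between mt-Rnr2 and mt-Nd1, and reads of a longer RNA that fall within its bounds cannot be told apart from reads of the tRNA.

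The mRNA and rRNA rows were among the most abundant of the table. By mean count mt-Co1 ranked 1, mt-Cytb 2 and mt-Atp6 3, and all 15 ranked within the first 28 rows except mt-Nd3, at 105. Per kilobase of annotated length, the genes of complexes IV, V and III lay above those of complex I. mt-Co1, the catalytic subunit of complex IV (cytochrome c oxidase), had 49013 ± 3749 CPM per kb (SD, n = 17), mt-Atp8 had 46933 ± 5196, mt-Atp6 had 25916 ± 4282, mt-Co2 had 25588 ± 4535 and mt-Co3 had 21313 ± 3214. mt-Cytb, the only mitochondrially encoded subunit of complex III, followed with 18245 ± 2376 CPM per kb. Within complex I (NADH dehydrogenase), the level ran from 13417 ± 1074 CPM per kb for mt-Nd4l through 10843 ± 1449 for mt-Nd1, 9983 ± 1558 for mt-Nd4, 7388 ± 610.4 for mt-Nd5, 7348 ± 890.8 for mt-Nd2 and 5580 ± 976.6 for mt-Nd6 to 3225 ± 429.2 for mt-Nd3. mt-Nd6 is the only mRNA of the light strand. Of the rRNAs, mt-Rnr2 (16S) had 6584 ± 629.5 CPM per kb and mt-Rnr1 (12S) 3443 ± 560.0, and a polyA selection need not keep rRNA in proportion to mRNA.

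The order of neighbours in level per kilobase held in all 17 libraries for mt-Atp8 over mt-Atp6, mt-Co2 over mt-Co3, mt-Co3 over mt-Cytb, mt-Cytb over mt-Nd4l, mt-Nd1 over mt-Nd4, mt-Nd4 over mt-Nd5 and mt-Nd6 over mt-Rnr1. It held in 16 for mt-Rnr2 over mt-Nd6 and in 15 for mt-Nd4l over mt-Nd1 and mt-Nd2 over mt-Rnr2. It was mixed for mt-Co1 over mt-Atp8 (12 of 17), mt-Atp6 over mt-Co2 (11), mt-Nd5 over mt-Nd2 (13) and mt-Rnr1 over mt-Nd3 (11), neighbours whose means lay within 1 SD of each other. Short rows lose more read starts at their ends. With the number of bases at which a whole read can start in place of the length, a choice made after seeing the data, mt-Atp8 lay above mt-Co1 in 17 of 17 libraries, at 69379 ± 7682 against 51200 ± 3917 CPM per kb of starts. By their means mt-Nd2 and mt-Nd5 also changed places, as did mt-Nd3 and mt-Rnr1. Over single libraries these orders were mixed, with mt-Nd2 above mt-Nd5 in 7 of 17 and mt-Nd3 above mt-Rnr1 in 11.

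**Figure D1:**
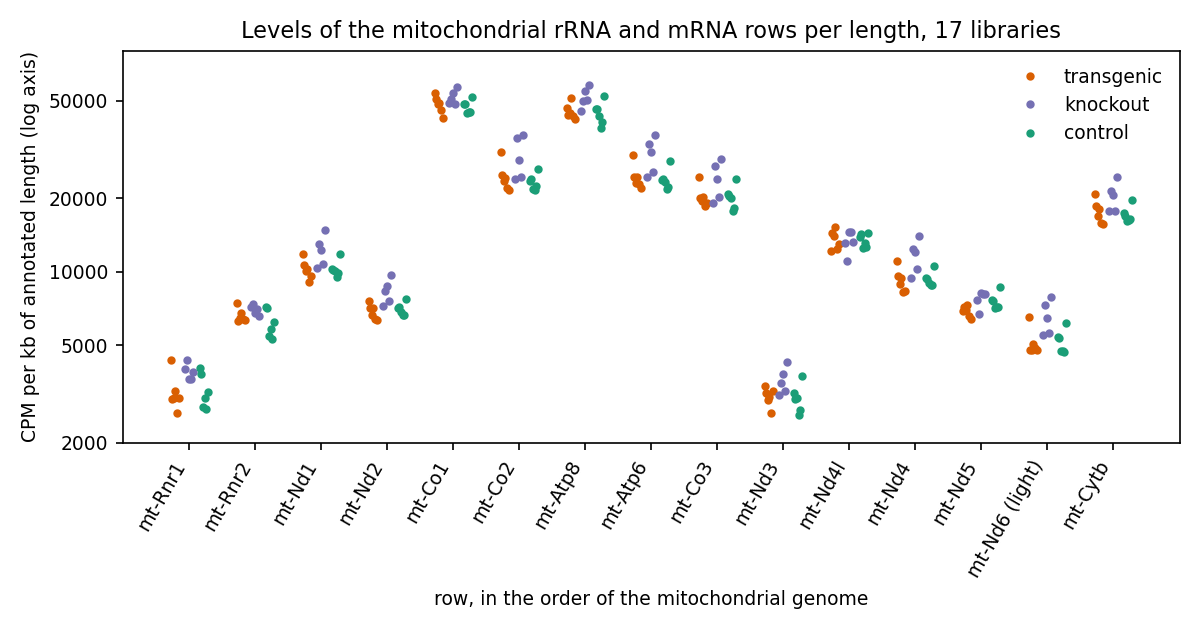
Level of the 2 rRNA and 13 mRNA rows in CPM per kb of annotated length (log axis), 1 point per library, coloured by group. mt-Co1 and mt-Atp8 sit highest, mt-Rnr1 and mt-Nd3 lowest, and the groups overlap at every gene.

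Genes cut from the heavy-strand precursor thus had unequal levels per kilobase. The heavy-strand mRNAs held 98.4 to 98.8% of the mitochondrial mRNA counts, and mt-Nd6, cut from the light-strand precursor, held 1.18 to 1.58%. A polyA selection need not keep these mRNAs in proportion either. mt-Atp6 (681 bp) had 1.59 to 2.22 counts for each count of mt-Atp8 (204 bp), with which it shares an mRNA. mt-Nd4 (1378 bp) had 2.90 to 5.17 for each of mt-Nd4l (297 bp). Per kilobase the order was the reverse: mt-Atp8 lay 1.81-fold above mt-Atp6, in 17 of 17 libraries. mt-Nd4l had a mean of 13417 CPM per kb against 9983 for mt-Nd4, which was higher only in knockout replicates 2 and 5. Rows of 1 mRNA thus differed per kilobase, so these levels are not amounts of mRNA alone. The sources used here do not give the strand setting of the counting, so antisense RNA cannot be told apart from a gene's own. Near-identical nuclear copies could also share reads: 11 nuclear rows matched 9 of the members at 95% identity or more over at least 67 bp. Of these, 10 were at 0 in every library, among them the Gm28661, Gm28437 and Gm10222 rows, identical to mt-Co2 over 681, to mt-Co3 over 783 and to mt-Nd4l over 294 bases. The Gm29216 row, which matches part of mt-Co1, held at most 7 counts. mt-Rnr2 was the only member with values that were not whole.

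Mitochondrial rows took 19.66 to 28.16% of all counts, and the highest shares were those of knockout replicates 2, 3 and 5. These held 25.56, 25.31 and 28.16%, and knockout replicates 1 and 4 held 22.04 and 22.55%. Controls held 19.999 to 24.05% (median 21.16%) and transgenic libraries 19.66 to 24.81% (median 21.72%). Knockout replicates 2, 3 and 5 lay above every other library, while knockout replicates 1 and 4 lay within the controls, so the groups overlapped. The means were 21.72 ± 1.84% (SD, n = 6) for transgenic, 24.72 ± 2.49% (SD, n = 5) for knockout and 21.42 ± 1.57% (SD, n = 6) for control libraries. Knockout exceeded control by 3.30 percentage points, against a pooled SD of 2.03, by 5.73 with library sizes adjusted by TMM, edgeR's correction of library size, and by 0.873 without knockout replicates 2, 3 and 5. The last value had to be smaller, since these are the 3 highest libraries. Transgenic differed from control by 0.303 points, below the pooled SD of 1.71, and from knockout by -3.00 points, or -4.34 with TMM-adjusted sizes and -0.570 without those 3 libraries. Within the run of library numbers that transgenic libraries share with control replicates 1 and 2 (22.03 and 21.95%), they differed by -0.265 points. No test was made of this sum, since the rows were chosen with earlier results known. In bulk RNA, fewer cells of a type and less RNA per cell cannot be told apart, and a share rises alike with more mitochondrial or with less other RNA.

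The complexes differed in how much of the mRNA counts they took. Of the mitochondrial mRNA counts, complex IV took 52.1 ± 0.813% (SD, n = 17), complex I 25.2 ± 0.648%, complex V 12.8 ± 0.488% and complex III 9.86 ± 0.256%. Complex IV held 52.80 ± 0.546% in transgenic (SD, n = 6), 51.23 ± 0.568% in knockout (SD, n = 5) and 52.07 ± 0.449% in control libraries (SD, n = 6). Complex I held 24.61 ± 0.534%, 25.44 ± 0.644% and 25.62 ± 0.180% in the same order. Complex V held 12.72 ± 0.346%, 13.32 ± 0.449% and 12.59 ± 0.391%, and complex III 9.87 ± 0.252%, 10.01 ± 0.302% and 9.72 ± 0.169%. Knockout replicates 2, 3 and 5 held 13.70, 13.48 and 13.65% of complex V, above every other library, with controls at 12.07 to 13.18%, while knockout replicates 1 and 4 held 12.61 and 13.16%, within the controls. mRNA rows took 18.36 to 26.74% of counts and rRNA rows 1.10 to 1.59%. The rRNA share was 1.58, 1.42 and 1.41% in knockout replicates 2, 3 and 5, 1.52 and 1.46% in replicates 1 and 4 and 1.10 to 1.52% in controls, so for rRNA only replicate 2 left the range of the controls. Control replicates 1 and 2 had the highest rRNA of the controls, with 3851 and 3660 CPM of mt-Rnr1 and 11376 and 11227 of mt-Rnr2, against 2613 to 3066 and 8416 to 9873 in control replicates 3 to 6.

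**Figure D2:**
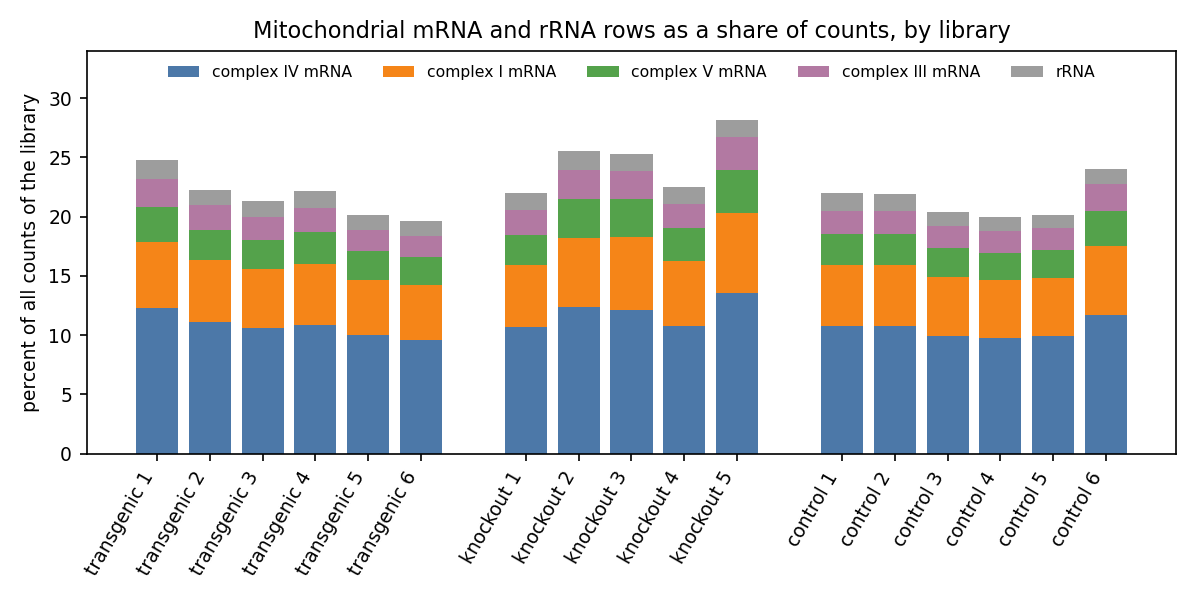
Stacked bars of the mitochondrial mRNA rows by respiratory complex and of the 2 rRNA rows, as a percent of all counts of each library. Knockout 2, 3 and 5 reach 25.31 to 28.16%, and the other libraries lie between 19.66 and 24.81%.

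Knockout against control asks whether loss of Nfkbid goes with a change in mitochondrial transcripts. Of the 17 mitochondrial rows that passed the filter on low counts (13 mRNAs, 2 rRNAs, mt-Tl1 and mt-Te), 0 were called at an adjusted p under 0.05 (edgeR, quasi-likelihood F test, Benjamini-Hochberg), where 0.881% of all 9986 rows tested were called higher and 1.01% lower. The 13 mRNAs had log2 fold changes above 0, with a median of 0.40 against -0.02 over all rows tested. An unadjusted edgeR p under 0.05 was held by 11 of them, where 1228 of all 9986 rows tested lay higher at that p. The 13 mRNAs were measured in the same libraries, so these are not separate results. DESeq2 called 4 of them higher (3.4% of rows tested), mt-Nd2, mt-Co2, mt-Atp6 and mt-Nd4, and limma-voom 0 (0.501%). With the sum of mitochondrial counts as the library size, mt-Co1, mt-Nd5, mt-Nd4l and mt-Rnr2 had values below 0.

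In complex IV, mt-Co2, which carries the copper site that takes electrons from cytochrome c, had 24048, 19641 and 24732 CPM in knockout replicates 2, 3 and 5. It had 16363 and 16677 CPM in replicates 1 and 4 and 14697 to 18030 (median 15710) in controls. The 3 libraries lay above all controls and the other 2 within them, and the log2 fold change was 0.51 (SE 0.16, edgeR adjusted p = 0.094). mt-Co3, a core subunit beside the catalytic one, had 21235, 18797 and 22743 CPM, 14946 and 15904 CPM, and 13949 to 18770 CPM (median 15859) in the same order, with 0.40 (SE 0.16, edgeR adjusted p = 0.155). mt-Co1 had 78455, 83152 and 87906 CPM, 75430 and 74889 CPM, and 69047 to 79914 CPM (median 72421), with 0.27 (SE 0.12, edgeR adjusted p = 0.181). For mt-Co1 replicate 2 also lay within the controls.

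In complex V, the ATP synthase, mt-Atp6, which forms part of the proton channel, had 22658, 21009 and 24637 CPM in knockout replicates 2, 3 and 5. It had 16636 and 17479 CPM in replicates 1 and 4 and 14807 to 19338 (median 16045) in controls, with a log2 fold change of 0.49 (SE 0.16, edgeR adjusted p = 0.093). mt-Atp8, a small membrane subunit encoded upstream on the same mRNA, had 10188, 11194 and 11875 CPM, 9251 and 10266 CPM, and 7874 to 10656 CPM (median 9129) in that order, with 0.36 (SE 0.12, edgeR adjusted p = 0.113). Replicates 2, 3 and 5 lay above all controls for mt-Atp6, but replicate 2 lay within them for mt-Atp8. mt-Cytb, which passes electrons through complex III, had 24472, 23633 and 27827 CPM, 20351 and 20301 CPM, and 18483 to 22392 CPM (median 19061), with 0.40 (SE 0.14, edgeR adjusted p = 0.116). Here all 3 lay above the controls.

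Complex I, which takes electrons from NADH, held large and small values. mt-Nd6 had 3789, 3366 and 4099 CPM in knockout replicates 2, 3 and 5, 2869 and 2913 in replicates 1 and 4, and 2444 to 3211 (median 2621) in controls, with a log2 fold change of 0.49 (SE 0.16, edgeR adjusted p = 0.095). mt-Nd4, a proton-pumping subunit, had 17027, 16546 and 19217 CPM, 12996 and 14105 CPM, and 12161 to 14599 CPM (median 12660), with 0.46 (SE 0.15, edgeR adjusted p = 0.088). mt-Nd2, another such subunit, had 8688, 9101 and 10082 CPM, 7507 and 7855 CPM, and 6878 to 8006 CPM (median 7239), with 0.40 (SE 0.13, edgeR adjusted p = 0.088). In these 3 genes replicates 2, 3 and 5 lay above every control and replicates 1 and 4 within the controls. mt-Nd1 and mt-Nd3, which sit in the membrane arm of the complex, had 0.40 (SE 0.14) and 0.38 (SE 0.14).

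mt-Nd4l and mt-Nd5 behaved differently from the rest of complex I. mt-Nd4l, encoded upstream of mt-Nd4 on 1 mRNA, had 3290, 4307 and 3931 CPM in knockout replicates 2, 3 and 5, 3880 and 4306 in replicates 1 and 4, and 3715 to 4269 (median 4001) in controls. Its log2 fold change was 0.11 (SE 0.09, edgeR adjusted p = 0.477). mt-Nd5, the longest row, had 12255, 14988 and 14775 CPM, 14002 and 14764 CPM, and 12999 to 15740 CPM (median 13475), with 0.17 (SE 0.10, edgeR adjusted p = 0.304). For both genes replicate 2, one of the highest libraries elsewhere, lay below every control.

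For the rRNAs, knockout replicate 2 alone lay above the controls. mt-Rnr1 had 4153, 3494 and 3710 CPM in replicates 2, 3 and 5, 3811 and 3476 in replicates 1 and 4, and 2613 to 3851 (median 2986) in controls, with a log2 fold change of 0.39 (SE 0.16, edgeR adjusted p = 0.154). mt-Rnr2 had 11654, 10716 and 10437 CPM, 11362 and 11140 CPM, and 8416 to 11376 CPM (median 9545), with 0.31 (SE 0.12, edgeR adjusted p = 0.133). mt-Tl1, at 9.31 to 16.5 CPM in knockout and 4.53 to 13.6 in control libraries, had 0.31 (SE 0.28, edgeR adjusted p = 0.519). Every one of the 17 rows overlapped between knockout and control, where 1.08% of all rows tested lay higher without overlap on the TMM-scaled CPM and 1.66% lower.

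Sizes and calls differed with the libraries in the fit. Knockout replicates 2, 3 and 5 were the highest in the mitochondrial share, so a fit without them, which keeps 2 knockout libraries, had to give smaller values and is given as a description. In it the median of the 13 mRNAs was 0.05, and 0 were called (0.0923% of rows tested were called higher and 0.305% lower). Of the mRNAs 0 had an unadjusted edgeR p under 0.05, where 338 of all 10830 rows tested lay higher and 524 lower at that p. mt-Co2 then had 0.04 (SE 0.16) and mt-Co3 -0.049 (SE 0.16). Without knockout replicate 1, 10 rows were called higher (4.4% of rows tested) and without knockout replicate 4 it was 7 (5.83%). Without transgenic replicate 1, which belongs to neither group but enters the shared estimate of the spread, it was 5 (2.91%), and with no filter on low counts 4 (0.88%). The TMM factor was 0.864, 0.951 and 0.859 in knockout replicates 2, 3 and 5 against 0.978 to 1.09 in controls. With total counts as library size and no such factor, chosen after seeing the data, the median of the mRNAs was 0.25 and that of all rows -0.15, mt-Co2 had 0.35 (SE 0.11, edgeR adjusted p = 0.095) and mt-Nd4l had -0.019 (SE 0.08), and 0 members were called (0.491% higher).

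Transgenic against control asks whether added Nfkbid goes with a change. Of the 17 rows 0 were called (5.23% of all rows tested were called higher and 2.17% lower by edgeR with Benjamini-Hochberg adjustment). Of the 13 mRNAs 0 had an unadjusted edgeR p under 0.05, where 1122 of all 9986 rows tested lay higher and 791 lower at that p. DESeq2 also called 0 (6.34% higher, 3.17% lower). The median log2 fold change of the mRNAs was 0.08, against -0.01 over all rows tested. mt-Co2 had the largest mRNA value, 0.15 (SE 0.16, edgeR adjusted p = 0.677), with 14823 to 21147 CPM (median 16291) in transgenic and 14697 to 18030 (median 15710) in control libraries. mt-Rnr2 had 0.17 (SE 0.11, edgeR adjusted p = 0.446), with 9981 to 11788 CPM (median 10183) against 8416 to 11376 (median 9545). mt-Nd5 was the only mRNA below 0, at -0.065 (SE 0.095, edgeR adjusted p = 0.797), with 11747 to 13330 CPM (median 12640) against 12999 to 15740 (median 13475). The other mRNAs lay between 0.04 (mt-Nd2) and 0.12 (mt-Cytb), mt-Rnr1 at 0.06 and mt-Tl1 at 0.29 (SE 0.27). With total counts as library size, mt-Rnr1, mt-Nd1, mt-Nd2, mt-Nd4 and mt-Nd6 had values below 0 as well, the lowest -0.033 in mt-Nd2. Against control replicates 1 and 2 alone, the run of library numbers shared with the transgenic libraries, the median of the mRNAs was 0.04 and 0 rows were called (1.21% higher and 0.185% lower), a choice made after seeing the data. mt-Rnr1 then had -0.22 (SE 0.20), mt-Rnr2 -0.050 (SE 0.14), mt-Nd6 -0.0031 and mt-Nd4l -0.0084, so these signs turned. All 17 rows overlapped between the groups, where 4.66% of all rows tested lay higher without overlap on the TMM-scaled CPM and 2.45% lower.

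Transgenic replicate 1 stood apart within its group. It held 21147 CPM of mt-Co2 against 14823 to 17003 in the other 5 libraries, 20500 of mt-Atp6 against 15024 to 16596, 3394 of mt-Nd6 against 2481 to 2634 and 4149 of mt-Rnr1 against 2527 to 3117. Without it, mt-Rnr1 (-0.10), mt-Nd1 (-0.029), mt-Nd2 (-0.037), mt-Atp6 (-0.0092), mt-Co3 (-0.029), mt-Nd4 (-0.043) and mt-Nd6 (-0.075) had values below 0 against control. Its TMM factor was 0.864, like that of knockout replicate 2, but its 15824 rows above 0 lay within the 15801 to 16705 of the transgenic group.

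Transgenic against knockout sets the opposite changes of Nfkbid beside each other. Of the 17 rows 0 were called (6.34% of all rows tested were called higher and 4.33% lower by edgeR with Benjamini-Hochberg adjustment). Of the 13 mRNAs 8 lay lower with an unadjusted edgeR p under 0.05, where 1214 of all 9986 rows tested did. These mRNAs were measured in the same libraries and are not separate results. DESeq2 called mt-Nd2 lower (6.19% of rows tested). The median of the mRNAs was -0.32, against -0.00047 over all rows tested. mt-Nd6 had -0.43 (SE 0.16, edgeR adjusted p = 0.089), mt-Nd4 -0.40 (SE 0.15, edgeR adjusted p = 0.087), mt-Nd2 -0.36 (SE 0.13, edgeR adjusted p = 0.072) and mt-Co2 -0.36 (SE 0.16, edgeR adjusted p = 0.179). mt-Atp6 had -0.38, mt-Nd1 -0.33, mt-Co3 -0.32, mt-Nd3 -0.29, mt-Cytb -0.29, mt-Atp8 -0.27, mt-Nd5 -0.24, mt-Co1 -0.17 and mt-Nd4l -0.043, while mt-Rnr1 had -0.34, mt-Rnr2 -0.14 and mt-Tl1 -0.020. The transgenic values thus lay below the knockout values for every mRNA in this fit. With the sum of mitochondrial counts as library size, mt-Co1, mt-Nd5, mt-Nd4l and mt-Rnr2 lay above 0.

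Calls differed with the libraries in this fit as well. Without knockout replicates 2, 3 and 5, the highest of the group, the values had to move up: the median of the mRNAs was 0.05, mt-Co3 had 0.14 (SE 0.16) and mt-Co2 0.12 (SE 0.16), each smaller than its SE, and 0 rows were called (5.42% of rows tested were called higher and 1.92% lower). Without transgenic replicate 1, 9 rows were called lower (8.32%), without knockout replicate 1 it was 5 (6.36%) and without knockout replicate 4 it was 3 (6.39%). With total counts as library size it was 3, mt-Nd2, mt-Nd4 and mt-Nd6 (4.02%), and with upper quartile normalization 1, mt-Nd2 (6.11%). All 17 rows overlapped between the groups, where 4.24% of all rows tested lay higher without overlap on the TMM-scaled CPM and 1.96% lower.

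**Figure D3:**
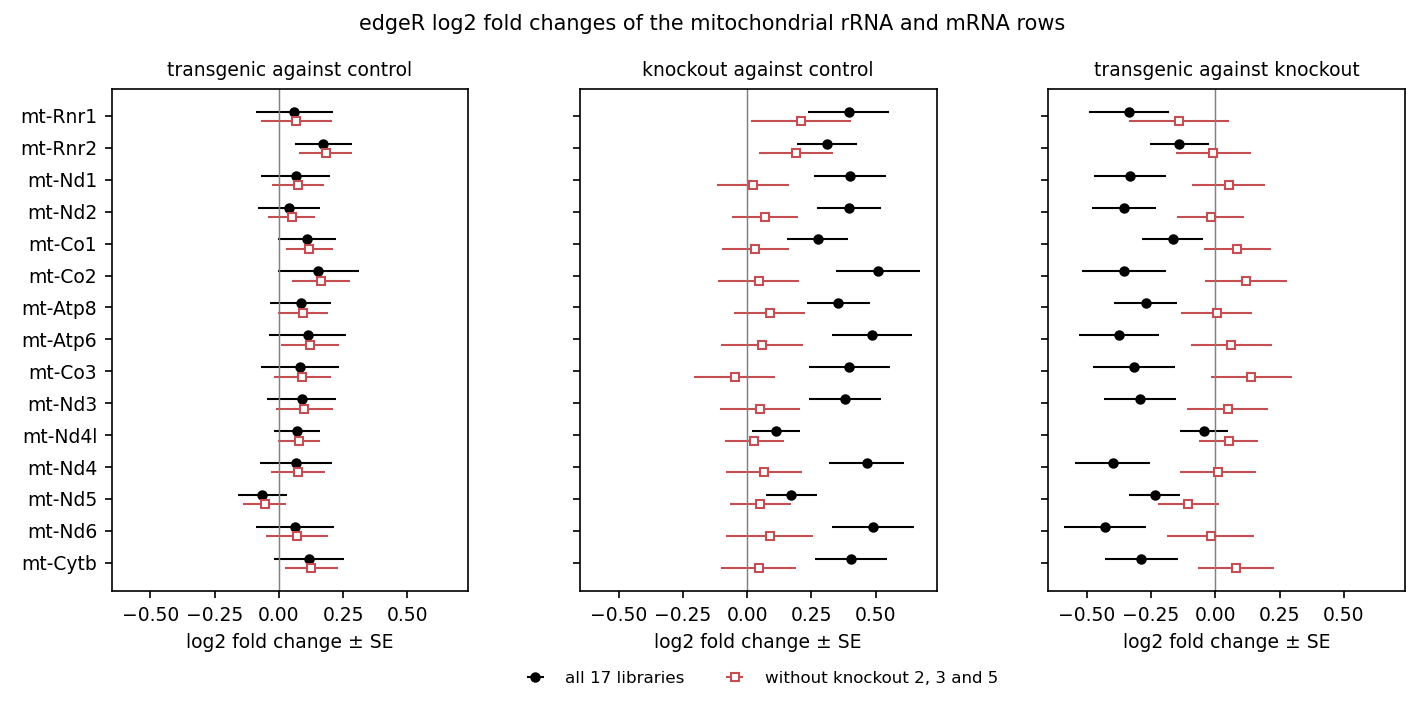
Log2 fold change with its SE for the 2 rRNA and 13 mRNA rows in the 3 comparisons, from edgeR with all 17 libraries (black circles) and without knockout replicates 2, 3 and 5 (open red squares). Knockout against control values of the mRNAs run from 0.11 to 0.51 with all libraries and have a median of 0.05 without the 3.

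The makeup of the mitochondrial mRNA counts, a ratio within a library that does not depend on its size, set 4 libraries apart: transgenic replicate 1 and knockout replicates 2, 3 and 5. In these 4, in that order, mt-Nd4 had 4.22, 5.17, 3.84 and 4.89 counts for each of mt-Nd4l, against 2.90 to 3.42 in the other 13. mt-Co2 had 0.255, 0.307, 0.236 and 0.281 counts for each of mt-Co1, against 0.212 to 0.226. mt-Nd5 had 3.71, 3.23, 4.45 and 3.60 counts for each of mt-Nd6, against 4.72 to 5.38. In all 3 ratios the 4 libraries lay outside the range of the other 13. They were singled out after these values were seen, so this is a description with no test.

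mt-Nd4l and mt-Nd5 were the rows lowest against control in these 4 libraries. They are also the 2 rows whose middle lies farthest from the annotated 3′ end of the mRNA. That end was taken as the last base of the gene, or of the downstream gene on a shared mRNA. Any bases of the mRNA beyond it are not counted. For 11 of the 13 mRNA rows this distance is set by the length of the row alone. It is not for mt-Atp8 and mt-Nd4l, which were placed upstream of mt-Atp6 and mt-Nd4 on a shared mRNA. mt-Nd4l lies farthest, at 1519 bases, and the log2 of its share of mitochondrial mRNA counts over the control mean was -0.35, -0.53, -0.14 and -0.43 in transgenic replicate 1 and knockout replicates 2, 3 and 5. For mt-Nd5, at 911.5 bases, it was -0.34, -0.42, -0.13 and -0.31. For mt-Co2, at 341.5 bases, it was 0.20, 0.34, 0.06 and 0.23. mt-Nd4, on the same mRNA as mt-Nd4l, was at 0.04, 0.15, 0.11 and 0.17, so the 2 parts of 1 mRNA moved apart. mt-Nd3, the row nearest to its 3′ end at 173.5 bases, did not follow, with -0.04, -0.04, 0.08 and 0.08.

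Across the 13 mRNAs this deviation and the distance had Spearman's rho of -0.67, -0.75, -0.69 and -0.76 in the 4 libraries, and -0.45, -0.58, -0.49 and -0.60 without mt-Nd4l and mt-Nd5. With the length of the row in place of the distance, rho was 0.03, -0.09, -0.21 and -0.10, a gap that rests on the placement of mt-Atp8 and mt-Nd4l alone. Over the 11 other rows, where distance and length give the same order, rho was -0.48, -0.58, -0.59 and -0.60, and -0.83 to 0.86 in the other 13 libraries. With the GC content of the row it was 0.03, -0.19, -0.69 and -0.24, so in knockout replicate 3 GC and distance gave the same rho, and knockout replicate 4 had -0.70 with GC and 0.04 with distance. The points share a library, and a higher share of 1 gene lowers the others, so these values are a description with no test. Control replicate 6 had rho of -0.74 and control replicate 4 of 0.71, with small deviations: their SD over the 13 mRNAs was 0.058 each, against 0.17, 0.26, 0.085 and 0.20 in the 4 libraries. The other 11 libraries had rho of -0.38 to 0.35 and an SD of 0.025 to 0.077. The coefficient of variation of CPM over all 17 libraries, from 7.65% for mt-Co1 to 17.7% for mt-Co2, had rho of -0.78 with the distance, -0.19 with the length and -0.65 with either over the 11 rows. RNA integrity was measured per the labels, but its values are not given in the sources used here, and its part in this pattern was not tested.

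**Figure D4:**
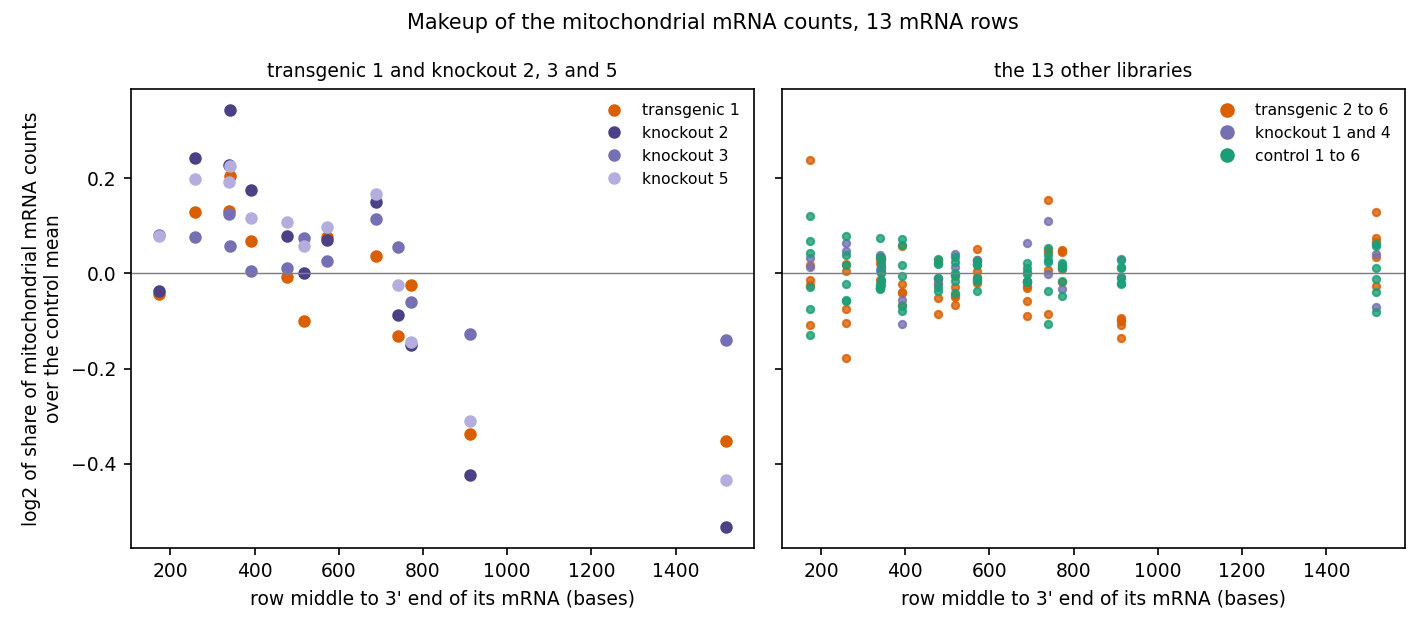
Log2 of each mRNA row's share of mitochondrial mRNA counts over the control mean, against the distance to the annotated 3′ end of its mRNA. The distance is in bases, from the middle of the row. Transgenic 1 and knockout 2, 3 and 5 are on the left and the other 13 libraries on the right. On the left the 2 farthest rows, mt-Nd5 and mt-Nd4l, lie between -0.53 and -0.13, and on the right all values lie between -0.18 and 0.24.

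Within the mitochondrial counts, mt-Nd5 was the only row of 17 whose share did not overlap between transgenic and control libraries, and it was picked for this. It made up 5.42% of the mitochondrial mRNA counts in transgenic replicate 1 and 6.24 to 6.42% in the other transgenic libraries, against 6.75 to 6.98% in controls, of which control replicates 1 and 2, in the same run of library numbers, held 6.81 and 6.75%. As a share of all mitochondrial counts the groups did not overlap either, where 2.09% of all rows tested lay lower without overlap. Nuclear rows divided by mitochondrial counts also shift with the mitochondrial share, so this percent is not a like background. Knockout replicates 1 and 4 held 6.82 and 7.00% of the mRNA counts, and replicates 2, 3 and 5 held 5.11, 6.28 and 5.52%. With the sum of mitochondrial counts as library size, mt-Nd5 had a log2 fold change of -0.15 (SE 0.07, unadjusted p = 0.037, edgeR adjusted p = 0.262) for transgenic against control, which is no call (1.99% of rows tested were called lower). Without transgenic replicate 1 and knockout replicates 2, 3 and 5 as well, chosen after seeing the data, it was -0.11 (SE 0.05, unadjusted p = 0.022, edgeR adjusted p = 0.133; 3.88% were called lower). The other row without overlap was mt-Nd2, whose share of all mitochondrial counts was lower in transgenic than in knockout libraries (0.971% of all rows tested). Of the mRNA counts it made up 3.52 to 3.71% in controls, 3.62 to 3.81% in knockout libraries and 3.38 to 3.61% in transgenic ones.

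The balance of the rRNAs also differed within the transgenic group. mt-Rnr2 had 3.45 to 4.01 counts for each of mt-Rnr1 in transgenic replicates 2 to 6 and 2.84 in transgenic replicate 1. Controls held 2.95 to 3.24, knockout replicates 1 and 4 held 2.98 and 3.20, and knockout replicates 2, 3 and 5 held 2.81, 3.07 and 2.81. Transgenic replicates 2 to 6 lay above all other libraries and replicate 1 below all controls, so the groups overlapped through 1 library. As a percent of mRNA counts, rRNA counts made up 5.69 to 7.42% in controls, 5.29 to 7.39% in knockout libraries and 6.13 to 7.07% in transgenic ones, with no order by group.

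**Figure D5:**
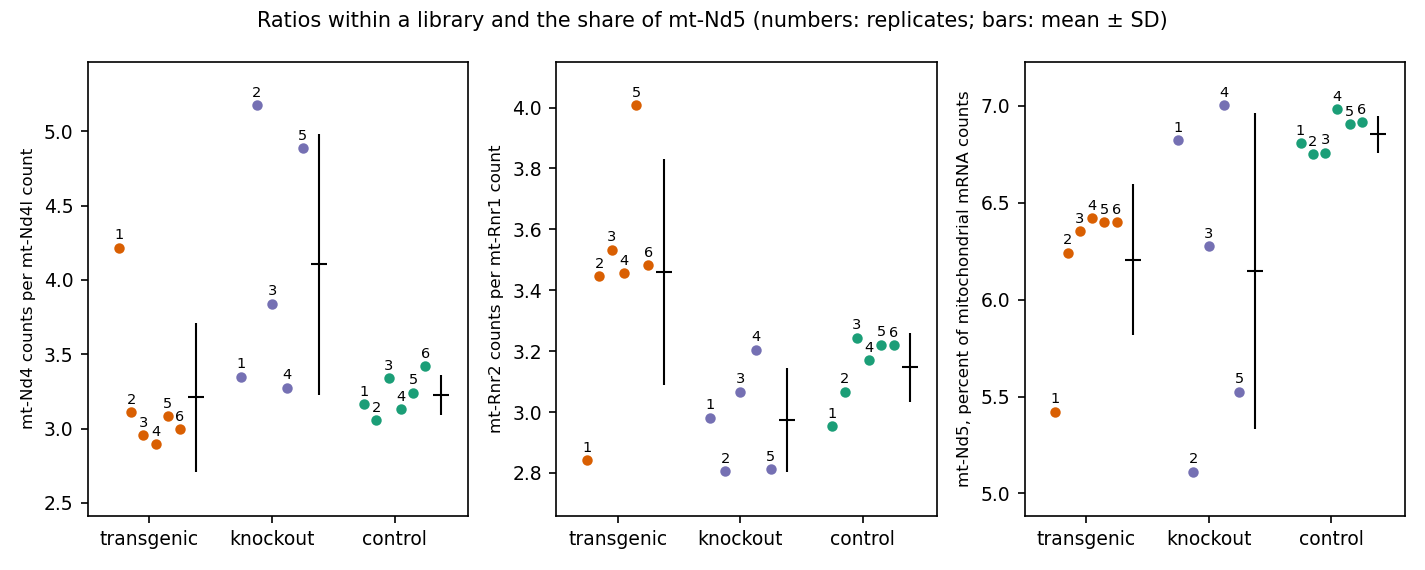
Counts of mt-Nd4 per count of mt-Nd4l, counts of mt-Rnr2 per count of mt-Rnr1, and mt-Nd5 as a percent of mitochondrial mRNA counts, 1 numbered point per library with the group mean and SD; the axes do not start at 0. Transgenic 1 and knockout 2, 3 and 5 lie at 3.84 to 5.17 in the first, transgenic 2 to 6 at 3.45 to 4.01 in the second, and the transgenic points at 5.42 to 6.42% below the controls at 6.75 to 6.98% in the third.

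Rows named after nuclear partners of these genes were described from lists. Of the rows of complex I, 14 of 36 passed the filter, and of complexes II, III, IV and V it was 2 of 4, 1 of 9, 3 of 11 and 6 of 17; 0 were called in transgenic against control (5.23% of all rows tested were higher and 2.17% lower) or knockout against control (0.881% and 1.01%) by edgeR with Benjamini-Hochberg adjustment. In transgenic against knockout, where 6.34% of all rows were higher and 4.33% lower, the Ndufb8 row of complex I was higher by 0.42 (SE 0.12, adjusted p = 0.022) and the Atp5d row of complex V lower, at -0.93 (SE 0.19, adjusted p = 0.0018). The complex I rows had a median log2 fold change of 0.17 in knockout against control, against 0.40 for the mitochondrial mRNAs. Of 10 tested rows of mitochondrial DNA transcription and replication 0 were called against control. In transgenic against knockout the Twnk row, named after the mitochondrial DNA helicase, was higher by 1.37 (SE 0.29, adjusted p = 0.0029), and the Polg2 (-0.41) and Tfb2m (-0.81) rows, named after a polymerase subunit and a transcription factor, were lower.

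Of 39 tested rows of the mitochondrial ribosome, 4 were higher and 0 lower in transgenic against control by edgeR, where 5.23% of all rows tested were higher: the Mrpl17 (1.58, SE 0.33, adjusted p = 0.0036), Mrpl10 (1.09), Mrpl21 (0.43) and Mrps2 (0.32) rows. In transgenic against knockout, with 6.34% of all rows higher, 4 were higher and 0 lower: the Mrpl17 (1.77), Mrpl13 (1.28), Mrps36 (1.27) and Mrpl22 (1.10) rows. In knockout against control 0 were called, with a median of -0.11. Controls summed to 5946 to 6534 CPM over all rows of the list, knockout libraries to 5783 to 6013 and transgenic ones to 7021 to 7771. The 12 tested rows of mitochondrial RNA processing, the 5 of biogenesis and the 8 of mitochondrial stress held 0 calls in each comparison. Of the 11 tested tRNA synthetase rows 1 was called, Tars2, lower in transgenic against knockout at -0.98.

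Marker rows of Tregs and of other cells were set beside the mitochondrial share. The 12 Treg rows summed to 904 to 931 CPM in knockout replicates 2, 3 and 5, below all controls at 958 to 1072, with 959.5 to 995 in knockout replicates 1 and 4 and 1054 to 1166 in transgenic libraries. Single Treg rows went both ways. Knockout and control means were 164 and 139 CPM for Il2ra and 206 and 159 for Ikzf2. They were 299 and 360 CPM for Foxp3, 133 and 185 for Izumo1r and 56.9 and 76.0 for Ctla4. Of 7 tested Treg rows, edgeR called 1 higher and 1 lower in knockout against control (0.881% and 1.01% of all rows tested). The summed level of the 9 B cell rows was 146 to 186 CPM in knockout replicates 2, 3 and 5 and 268 to 269 in replicates 1 and 4. It was 212 to 329 CPM in controls and 154 to 283 in transgenic libraries, with the Cd79b, Ebf1 and Iglc2 rows at 0 in every library. The 9 CD8 T and NK cell rows summed to 18.2 to 28.9, 30.2 to 45.9, 26.1 to 31.4 and 14.9 to 37.9 CPM in the same order. The 10 myeloid rows summed to 53.7 to 76.5 CPM in controls, 53.7 to 83.5 in knockout libraries and 477 to 844 in transgenic ones, where the Tyrobp row alone had a transgenic mean of 636 CPM and the S100a8, S100a9 and C1qa rows were at 0. The 8 erythroid and platelet rows summed to at most 0.937 CPM in any library. The part of such cells in the mitochondrial values was not tested.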

How the data were processed

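Libraries were made with the KAPA mRNA HyperPrep kit (polyA selection and RNA fragmentation) and sequenced as a 67 bp read with a 9 bp unique molecular identifier, and reads were aligned with Bowtie2 to GRCm38 and Ensembl transcripts, per the labels' protocols. The deposited table holds expected counts per gene, estimated by the authors, of which 5.87% are not whole. Whether molecular identifiers were used for counting and which strand setting was used are not given in the sources used here. Symbols, coordinates and sequences came from GENCODE vM21 (GRCm38), and 47224 of 47643 rows matched. Counts were rounded, filtered with filterByExpr and scaled by TMM, and 1 model over all 17 libraries was fitted with edgeR 4.0.16 in R 4.3.3 (quasi-likelihood F test, Benjamini-Hochberg adjustment over 9986 rows, threshold 0.05). Alternatives were other scalings, filters and tools (DESeq2 1.42.0, limma 3.58.1), a replicate block, and fits that left libraries out. Nuclear copies were found with BLAST 2.17.0. Ratios, shares and figures were made in Python 3.11.15. The mitochondrial rows were named as a whole by their symbol, with mt-Tl1 as the only tRNA row named with a fold change. The members and gene lists were chosen with earlier results of these data known. In simulated data with known changes, the fit recovered 94, 91 and 92% of rows set to a log2 change of 2 for transgenic against control, knockout against control and transgenic against knockout (9731, 9731 and 9738 rows tested), and 65, 59 and 55% of those set to 1. Each row was drawn on its own, with no shift shared by the rows of a library, and no smaller change was set. These percentages therefore do not cover changes of the size seen in the mitochondrial rows.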

Additional observations from a re-analysis of the deposited data

Results flagged for a closer look

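The groups of values examined share rows and libraries, so the 1 in 20 that chance flags among independent groups is no yardstick here. A gap between 1 library and the rest of its group, relative to the group's range, stood out for 21 of 132 groups of values. In transgenic replicate 1 this held for mt-Rnr1 (4149 CPM), mt-Co2 (21147 CPM), mt-Atp6 (20500 CPM), mt-Co3 (19086 CPM) and mt-Nd6 (3394 CPM). It also held there for the counts of mt-Nd4 per mt-Nd4l (4.22), mt-Nd5 per mt-Nd6 (3.71) and mt-Co2 per mt-Co1 (0.255), and for the percent of mitochondrial mRNA counts in mt-Co2 (9.11), mt-Atp6 (8.83), mt-Nd4l (1.56) and mt-Nd5 (5.42). In control replicate 6, mt-Nd1 (11311 CPM), mt-Atp6 (19338 CPM), mt-Nd4 (14599 CPM), mt-Nd5 (15740 CPM), mt-Cytb (22392 CPM) and complex I (5.84% of counts) were high and mt-Tl1 (4.53 CPM) was low. mt-Nd3 was high in transgenic replicate 6 (0.619% of mitochondrial mRNA counts), and control replicate 1 had the highest total, 4726615 counts.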

How the results depend on the processing

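With 1 library left out at a time, 0 to 10 mitochondrial rows were called higher in knockout against control, where the fit of all libraries called 0.881% of rows tested. It was 10 without knockout replicate 1 (4.4% of rows tested), 7 without knockout replicate 4 (5.83%) and 5 without transgenic replicate 1 (2.91%). In transgenic against knockout 0 to 9 were called lower, where the fit of all libraries called 4.33% of rows tested. It was 9 without transgenic replicate 1 (8.32%), 5 without knockout replicate 1 (6.36%) and 3 without knockout replicate 4 (6.39%). DESeq2 (3.4% of rows tested) and the fit with no filter (0.88%) called 4 each higher in knockout against control. In transgenic against knockout total counts as library size called 3 lower (4.02%), and DESeq2 (6.19%) and upper quartile normalization (6.11%) 1 each. The other settings called 0. The difference in the share of counts, knockout against control, was 5.73 percentage points with TMM-adjusted library sizes, 0.873 without knockout replicates 2, 3 and 5 and 0.873 also without transgenic replicate 1, and for transgenic against knockout it was -0.570 without knockout replicates 2, 3 and 5. With the replicate number as a block (replicate block), 0 mitochondrial rows were called in any comparison, and over all rows 417 were higher and 159 lower, 23 and 44, and 456 and 214 in transgenic against control, knockout against control and transgenic against knockout, where without it they were 522 and 217, 88 and 101, and 633 and 432. Same-numbered libraries correlated at -0.52 to 0.36. Libraries of unlike number were not compared, so these values cannot show whether the numbers pair the libraries. A fit without knockout replicates 1 and 4 was not run, since these were picked by the value measured. That limit holds for the fit without knockout replicates 2, 3 and 5 too, which is given because these libraries also had the fewest rows above 0. The cause of the changes of sign was not tested. In transgenic against control, the values that changed sign were, without control replicates 3, 4, 5 and 6, mt-Rnr1 -0.22, mt-Rnr2 -0.050, mt-Nd6 -0.0031 and mt-Nd4l -0.0084. With library sizes from the mitochondrial rows they were mt-Rnr1 -0.048, mt-Nd1 -0.029, mt-Nd2 -0.052, mt-Co3 -0.011, mt-Nd4 -0.034, mt-Nd6 -0.035 and mt-Nd4l -0.0082. Without transgenic replicate 1 and knockout replicates 2, 3 and 5 they were mt-Rnr1 -0.10, mt-Nd1 -0.028, mt-Nd2 -0.036, mt-Atp6 -0.0085, mt-Co3 -0.029, mt-Nd4 -0.042 and mt-Nd6 -0.074. With both of these they were mt-Rnr1 -0.10, mt-Nd1 -0.031, mt-Nd2 -0.042, mt-Atp6 -0.0081, mt-Co3 -0.025, mt-Nd4 -0.047 and mt-Nd6 -0.068. With total counts as library size they were mt-Rnr1 -0.023, mt-Nd1 -0.0086, mt-Nd2 -0.033, mt-Nd4 -0.011 and mt-Nd6 -0.016. With upper quartile normalization it was mt-Nd2 -0.0038. In knockout against control, the values that changed sign were, with library sizes from the mitochondrial rows, mt-Rnr2 -0.016, mt-Tl1 -0.091, mt-Co1 -0.073, mt-Nd5 -0.16 and mt-Nd4l -0.21. Without transgenic replicate 1 and knockout replicates 2, 3 and 5 they were mt-Tl1 -0.20 and mt-Co3 -0.044. With both of these they were mt-Tl1 -0.28, mt-Nd1 -0.025, mt-Co1 -0.017, mt-Co2 -0.0034, mt-Co3 -0.093, mt-Cytb -0.0028 and mt-Nd4l -0.025. Without knockout replicates 2, 3 and 5 they were mt-Tl1 -0.21 and mt-Co3 -0.049. With total counts as library size it was mt-Nd4l -0.019. In transgenic against knockout, the values that changed sign were, with library sizes from the mitochondrial rows, mt-Rnr2 0.10, mt-Tl1 0.25, mt-Co1 0.088, mt-Nd5 0.011 and mt-Nd4l 0.20. Without transgenic replicate 1 and knockout replicates 2, 3 and 5 they were mt-Tl1 0.43, mt-Co3 0.016 and mt-Nd4l 0.028. With both of these they were mt-Tl1 0.47, mt-Co1 0.041, mt-Co2 0.023, mt-Co3 0.067, mt-Nd3 0.011, mt-Cytb 0.011 and mt-Nd4l 0.078. Without knockout replicates 2, 3 and 5 they were mt-Tl1 0.50, mt-Nd1 0.052, mt-Co1 0.086, mt-Co2 0.12, mt-Atp8 0.0055, mt-Atp6 0.063, mt-Co3 0.14, mt-Nd3 0.048, mt-Nd4 0.010, mt-Cytb 0.081 and mt-Nd4l 0.052. With total counts as library size they were mt-Tl1 0.062 and mt-Nd4l 0.025. With no filter on low counts they were mt-Tl1 0.028 and mt-Nd4l 0.0013. With a filter of CPM of at least 1 in 5 libraries it was mt-Tl1 0.0076. With the replicate block it was mt-Tl1 0.12. With 1 library left out at a time, transgenic against control ranged for mt-Rnr1 -0.10 to 0.14, mt-Nd1 -0.029 to 0.13, mt-Nd2 -0.037 to 0.090, mt-Atp6 -0.0092 to 0.19, mt-Co3 -0.029 to 0.16, mt-Nd4 -0.043 to 0.13, mt-Nd6 -0.075 to 0.14, each below 0 only without transgenic replicate 1, and transgenic against knockout for mt-Tl1 -0.13 to 0.17.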
